A study of Caenorhabditis elegans with 26 samples.

Results

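The genes described here are the cysteine cathepsin and aspartyl protease genes of Caenorhabditis elegans, taken as every row of a deposited count table whose symbol begins with cpr, cpl, cpz or asp followed by a number. 27 of the 42533 gene symbols met this rule: 7 cpr genes of the cathepsin B type, the cathepsin L gene cpl-1, the cathepsin Z genes cpz-1 and cpz-2, and 17 asp genes of the pepsin and cathepsin D type. Poly(A) RNA of whole day 1 adults was sequenced in 26 libraries. Their 5 strains lack, have or overexpress flp-17, which encodes an FMRFamide-like neuropeptide made by the BAG sensory neurons. All 5 strains carry the reporter zcls4, an hsp-4 promoter joined to GFP on chromosome V. AEF276 also has the loss-of-function allele flp-17(n4894) (n = 5). AEF378 holds an extrachromosomal array with flp-17 fused to GFP under the gcy-31 promoter and a coel::RFP marker (n = 5). AEF373 holds an array in which flp-17 carries no GFP and keeps its own promoter and 3' untranslated region, marked by mCherry under the unc-122 promoter (n = 5). AEF149 holds an array with flp-17 fused to GFP under the flp-17 promoter and a myo-3 promoter::mCherry marker (n = 5). AEF231, the reporter alone, was the control (n = 6). AEF276, AEF378 and AEF373 share the outcrossed background of AEF231, and AEF149 is in the background of its parent strain, which had not been outcrossed. Animals of the array strains were sorted for their fluorescent marker 24 h before collection, while AEF276 and AEF231 were washed and replated unsorted. Against AEF231, the array and the sorting cannot be told apart. Each library pooled many animals, and the labels do not say whether replicates were separate cultures. The p-values rest on the spread among these libraries, which may be technical.

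Cysteine cathepsins and cathepsin D-like aspartyl proteases are made as inactive precursors that mature in acid compartments. In the nematode intestine they digest food protein in the gut lumen and break down proteins in lysosomes, which V-ATPase proton pumps keep acid, and small inhibitor proteins named cystatins block the cysteine enzymes. Several members also act outside the gut: cpl-1 is needed for embryos and for the processing of yolk, and cpz-1 is known from the epidermis and from moulting. RNA of whole animals does not show which tissue a read came from, and fewer cells of a type and less RNA per cell cannot be told apart in these data. The intestinal label of this gene set was therefore not testable here, although 19 of 19 intestinal marker genes other than the members were read and tested.

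Levels are given as CPM, a library's counts scaled to its total and TMM factor (unit, counts per 1e6). 20 of the 27 members passed the filter on low counts and were tested. The other 7 were at or near 0. cpr-2 had 26 counts and asp-9 had 23 over all libraries together, asp-16 had 4, asp-15 had 3 and asp-7 had 1. asp-18 and asp-19 had 0 counts, which allows up to 0.01 CPM over the libraries together (3 counts, counting error only). Per kilobase of annotated exon, asp-1 stood highest of the members at a mean of 1370.2 CPM per kb over all libraries, followed by cpl-1 at 1142, asp-6 at 860.4, asp-3 at 742 and cpr-6 at 608. The lowest of the tested members was asp-17 at 2.77 CPM per kb. The members' expression thus spans a wide range, and a small fold change of asp-1 or cpl-1 moves more reads than a large one of cpr-3.

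The members' summed share of all counts averaged 0.782 ± 0.0498% for AEF276 and 0.919 ± 0.0305% for AEF378 (SD, n = 5 each). It was 1.07 ± 0.0659% for AEF373 and 0.788 ± 0.0198% for AEF149 (n = 5 each), against 0.839 ± 0.0416% for AEF231 (n = 6). The AEF373 libraries lay between 0.996 and 1.15% and the AEF378 libraries between 0.881 and 0.949%. Neither overlapped the AEF231 libraries, which lay between 0.762 and 0.877%. Aspartyl protease genes made up 0.688 ± 0.0449% of counts in AEF373 and 0.510 ± 0.0343% in AEF231, and cathepsin genes 0.384 ± 0.0217% and 0.329 ± 0.0180% in the same strains. In AEF378 the shares were 0.550 ± 0.0238% for aspartyl protease genes and 0.369 ± 0.0145% for cathepsin genes, the latter close to that of AEF373.

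**Figure D1:**
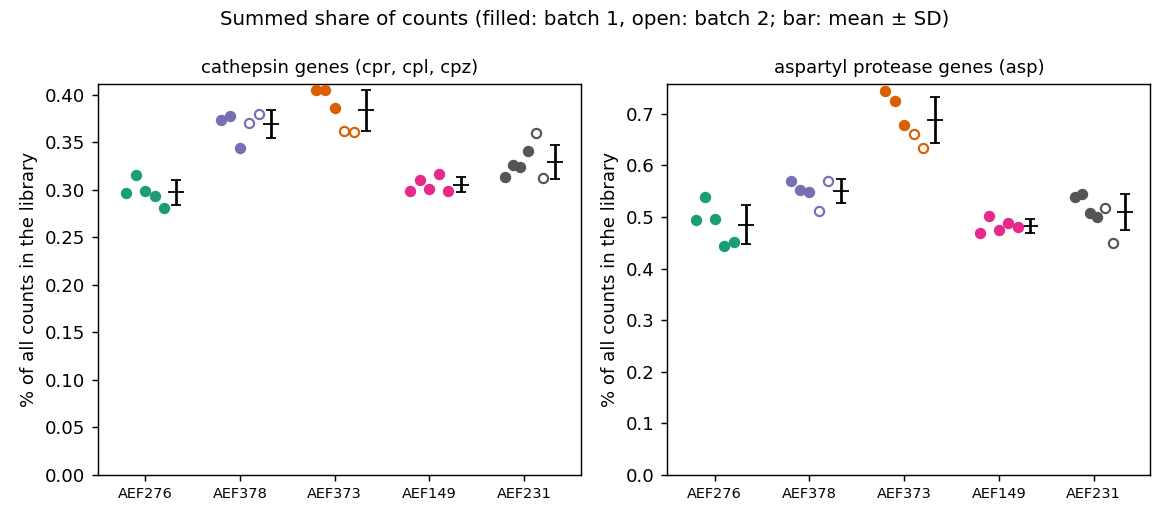
Share of each library's counts taken by the cathepsin genes (left) and by the aspartyl protease genes (right), in percent, for the 5 strains. Each point is a library, filled for batch 1 and open for batch 2, and bars give the mean and SD. The aspartyl share of AEF373, at a mean of 0.688%, lies above the 0.510% of AEF231.

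21 of the 27 genes lie on chromosome V, 4 are on X, and cpz-1 on I and asp-9 on IV are the others (Ensembl annotation of WBcel235). Of the tested genes with an annotated position 18.7% lie on chromosome V, whereas the 27 include 7 members that were not tested. Several of the 27 genes adjoin one another. asp-6 (WBGene00000219, V:8267511-8268937, minus strand), asp-12 (WBGene00017678, V:8269210-8272056, plus strand) and asp-5 (WBGene00000218, V:8272385-8274044, plus strand) follow each other. cpr-5 (WBGene00000785, V:1132598-1134036, minus strand) stands beside cpr-8 (WBGene00021070, V:1134602-1139182, plus strand), asp-8 (WBGene00019105, V:3024549-3027931, plus strand) beside asp-7, and asp-1 (WBGene00000214, V:19049562-19050752, minus strand) beside asp-15, asp-16 and asp-17. Exons of asp-2, asp-4 and cpz-2 overlap those of a protein-coding gene on the opposite strand (inx-10, R12H7.4 and gcy-34) by 74, 33 and 59 bases, and the strand setting of the counting is not known, so that a few reads of these genes may belong to the neighbour.

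The comparisons against AEF231 ask how these genes stand when flp-17 is lost or added. flp-17 itself averaged 0.310 CPM for AEF276, 7.59 for AEF378, 301 for AEF373 and 388 for AEF149, against 3.80 for AEF231, and no library of any of the 4 strains lay within the AEF231 range of 2.18 to 5.56. Every comparison is a quasi-likelihood test in edgeR, with p adjusted by Benjamini-Hochberg over the 13315 genes tested, and a gene is said to rise or fall at an adjusted p below 0.05. The 4 comparisons share the AEF231 libraries and are therefore not independent of each other. In AEF373 13 of 20 members rose and 3 fell, where 17.9% of all genes tested rose and 16.9% fell. In AEF149 2 rose and 9 fell (6.51% and 11% of all genes), in AEF276 1 rose and 5 fell (11.2% and 9.08%), and in AEF378 3 rose and 2 fell (7.68% and 5.92%). The members' median log2 fold change was -0.07 for AEF276, 0.13 for AEF378, 0.37 for AEF373 and -0.19 for AEF149, while the median over all genes was within 0.01 of 0 in each comparison. asp-13 and cpz-1 fell in all 4 strains, although the cpz-1 call in AEF378 ended under several other fits given below. asp-12 and cpz-2 rose in all 3 array strains. Calls with at least a 2-fold change numbered 0 in AEF276 (3.85% of all genes), 0 in AEF378 (1.94%), 2 in AEF373 (5.9%) and 2 in AEF149 (5.22%). Libraries did not overlap those of AEF231 for 3 members in AEF276 (10% of all genes), 3 in AEF378 (6.23%), 10 in AEF373 (14.6%) and 7 in AEF149 (12.7%).

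**Figure D2:**
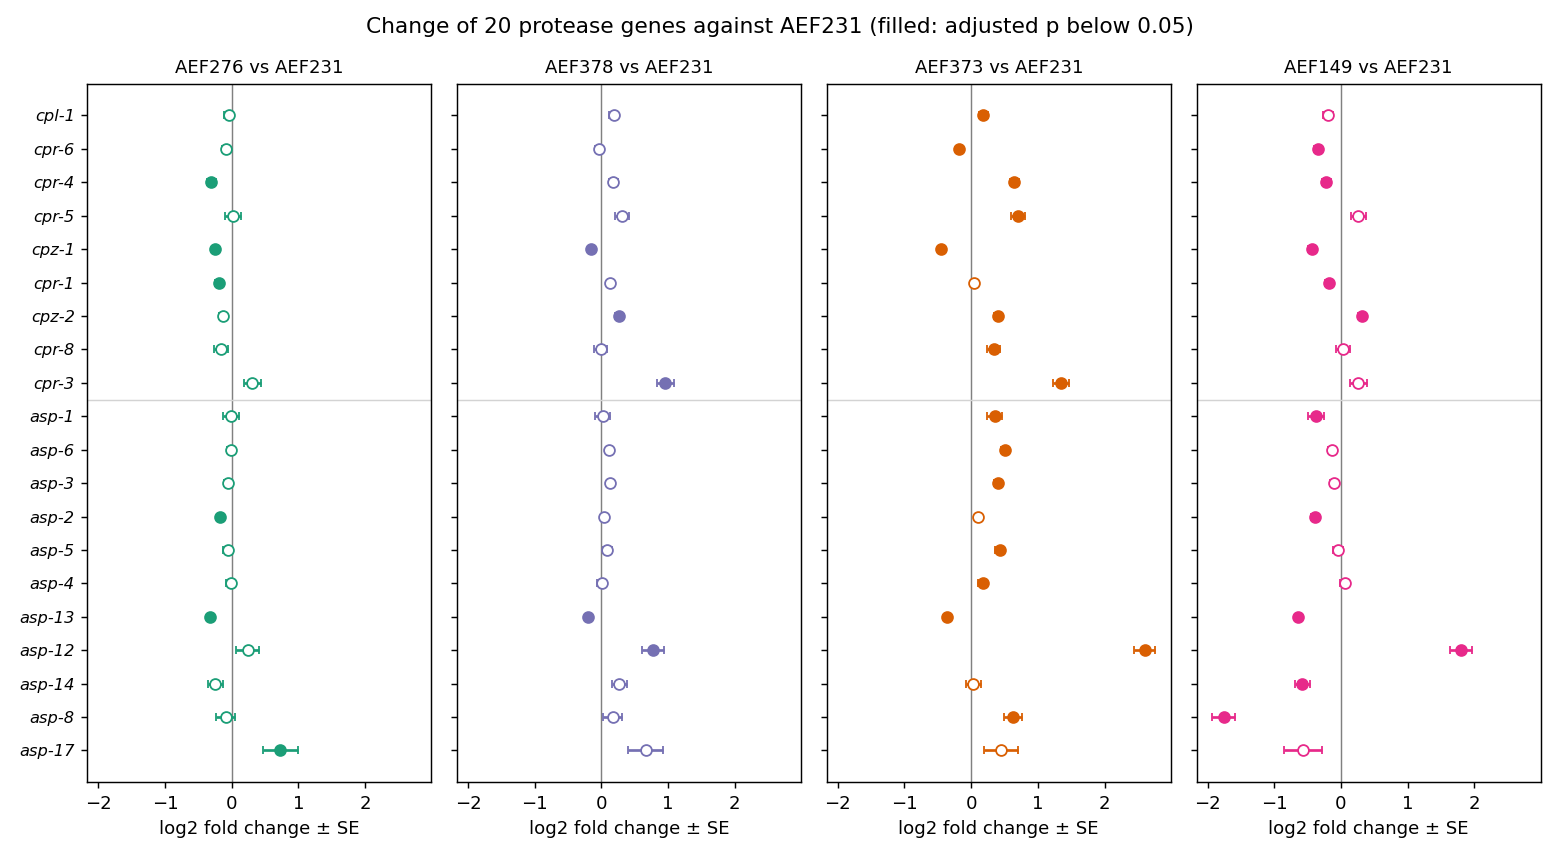
Log2 fold change with its SE (x axis) of the 20 tested members (y axis; cathepsins above, aspartyl proteases below, each by level per kilobase) in each strain against AEF231. Filled points have an adjusted p below 0.05, and number 6 for AEF276, 5 for AEF378, 16 for AEF373 and 11 for AEF149.

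Of the cathepsin B genes, cpr-3 moved furthest. It was read at 17.7, 20.4, 20.3, 15.8 and 12.2 CPM in AEF378 and at 30.4, 26.3, 30.2, 15.8 and 13.3 CPM in AEF373, against a lowest value of 8.05, a median of 8.49 and a highest of 11.96 CPM in AEF231. Every library of both array strains lay above every AEF231 library. The rise was 0.96 ± 0.12 log2 (SE) in AEF378 and 1.35 ± 0.12 in AEF373 (adjusted p = 2.75e-07 and 6.48e-12). In AEF276 and AEF149 cpr-3 averaged 12.7 ± 1.95 and 12.3 ± 0.818 CPM and did not pass the test (adjusted p = 0.0844 and 0.177). The 2 lower AEF373 libraries were those of batch 2.

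cpr-4, whose product is known as a secreted cathepsin B that irradiated worms release, showed opposite calls in different strains. It had 249.5, 289.9, 262, 262 and 229 CPM in AEF276, and 516, 511, 477, 499.9 and 473 CPM in AEF373. In AEF231 it lay between 249 and 372 with a median of 325 CPM. All AEF373 libraries were above those of AEF231, whereas the AEF276 libraries overlapped the lower end of that range. cpr-4 rose by 0.65 ± 0.07 log2 in AEF373 and changed by -0.31 ± 0.07 in AEF276 (adjusted p = 2.15e-09 and 0.0023). AEF149 libraries had 279, 295, 260.2, 257 and 284 CPM, a change of -0.22 ± 0.07 (adjusted p = 0.0263).

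cpr-5 rose in AEF373, where it had 489.8, 548, 379.6, 457 and 474 CPM, against 246 to 382 CPM in AEF231 with a median of 274. The change was 0.70 ± 0.11 log2 (adjusted p = 3.53e-05), with 1 AEF373 library just inside the AEF231 range. Its neighbour cpr-8 rose there by 0.34 ± 0.10 (adjusted p = 0.00618), at 19.2 ± 2.01 CPM in AEF373 and 15.2 ± 0.677 CPM in AEF231. cpr-6, the most abundant cathepsin B gene, went down in 2 array strains: it had 805, 742, 758, 697 and 669.7 CPM in AEF373 and 639, 629, 652, 683 and 666 in AEF149, against 761 to 930.4 with a median of 833 in AEF231. Only AEF149 was free of overlap, and the changes were -0.18 ± 0.05 and -0.35 ± 0.05 log2 (adjusted p = 0.00592 and 6.6e-06). The AEF373 call ended with batch 1 alone (0.412). cpr-1, a cysteine protease gene of the gut, fell in AEF276 and AEF149, where it averaged 189 ± 8.83 and 189.8 ± 7.33 CPM, against 228 ± 33 in AEF231 (-0.19 ± 0.06 and -0.18 ± 0.06 log2, adjusted p = 0.0103 and 0.0139). It was at 238 ± 18.7 CPM in AEF373 and did not pass the test there (adjusted p = 0.49), so that the cathepsin B genes did not move as a block.

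The cathepsin Z genes went in opposite directions. cpz-1 (WBGene00000788, I:2686640-2689429, minus strand) had 232, 253, 252, 276 and 260.0 CPM in AEF276, and 227, 221, 199, 236 and 236 in AEF373. It had 210.4, 214, 217, 244 and 232 CPM in AEF149, against 289.6 to 328 with a median of 299 in AEF231. Not 1 library of these 3 strains reached the AEF231 range, and the log2 fold changes were -0.25 ± 0.05, -0.45 ± 0.05 and -0.44 ± 0.05 (adjusted p = 0.00101, 5.15e-09 and 4.5e-08). In AEF378 cpz-1 averaged 274 ± 13.9 CPM, a change of -0.15 ± 0.05 (adjusted p = 0.0378). cpz-2 had 54.9, 56.5, 60.2, 51.1 and 54.2 CPM in AEF378 and 63.6, 67.1, 65.1, 58.1 and 53.2 in AEF373. It had 58.7, 67.5, 62.1, 54.96 and 57.3 CPM in AEF149, against 44.4 to 50.5 with a median of 45.9 in AEF231. The array strains lay wholly above AEF231, by 0.26 ± 0.06, 0.40 ± 0.06 and 0.32 ± 0.06 log2 (adjusted p = 0.00182, 4.71e-07 and 9.81e-05), while AEF276 had 44.2 ± 2.95 CPM (adjusted p = 0.147). The cathepsin L gene cpl-1 (WBGene00000776, V:16592572-16595346, minus strand) averaged 1502 ± 144 CPM in AEF373, against 1327 ± 140 in AEF231. It passed the test in AEF373 alone (0.18 ± 0.07 log2, adjusted p = 0.0378), a call that ended under several other fits given below. In AEF378 the cpl-1 change was as large, 0.18 ± 0.07 log2 at 1503 ± 109 CPM, but did not pass (adjusted p = 0.0688). The difference of the AEF373 change from those of the other strains was tested only for the array strains, below.

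**Figure D3:**
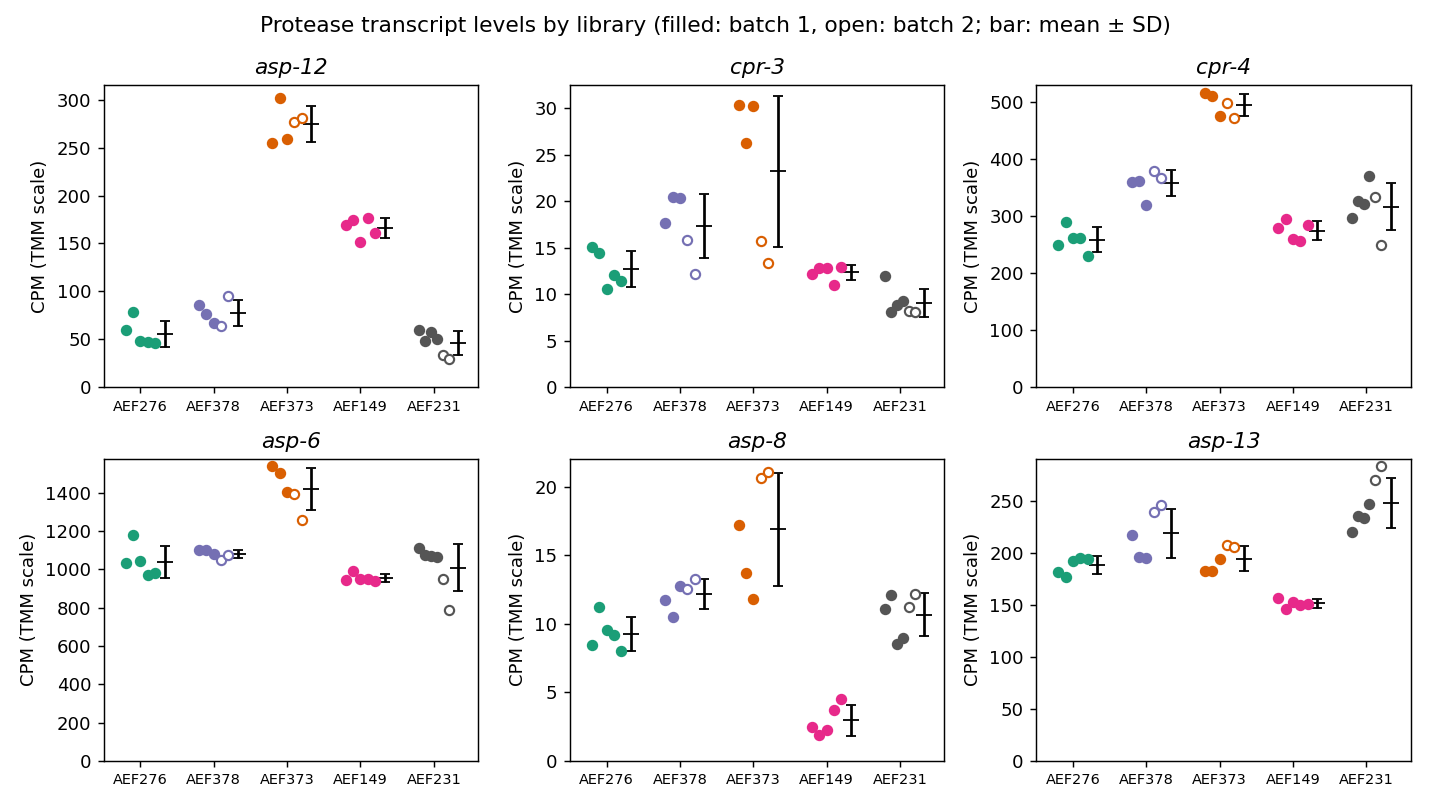
CPM on the TMM scale (y axis, from 0) of 6 members in each library of the 5 strains (x axis), filled for batch 1 and open for batch 2, with mean and SD. asp-12 lies at 255 to 302 CPM in AEF373 and 151 to 177 in AEF149, against 29.0 to 59.7 in AEF231, and asp-8 lies below 5 CPM in AEF149 alone.

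Among the aspartyl proteases asp-12 changed most. It had 85.9, 75.99, 66.7, 63.3 and 95.1 CPM in AEF378, 255, 302, 259, 277 and 281 in AEF373, and 169, 174, 151, 177 and 161 in AEF149. In AEF231 it lay between 29.0 and 59.7 CPM with a median of 48.9, so that the libraries of all 3 array strains stood above the control and those of AEF373 and AEF149 far above. The folds were 1.71, 6.07 and 3.48 (0.78 ± 0.16, 2.60 ± 0.16 and 1.80 ± 0.16 log2, adjusted p = 0.00263, 4.97e-11 and 4.44e-08). The AEF378 call ended when batch 1 was fitted alone (0.0669). AEF276 libraries, at 46.3 to 78.4 CPM, overlapped AEF231 (adjusted p = 0.349). The genes on either side of asp-12 moved less and in fewer strains. asp-6 had 1539, 1501, 1402, 1394 and 1255 CPM in AEF373, against 786 to 1109 with a median of 1067 in AEF231, and asp-5 had 518, 482, 528, 479 and 407 CPM in AEF373, against 327 to 406 with a median of 357. Both rose there, by 0.51 ± 0.06 and 0.43 ± 0.07 log2 (adjusted p = 1.78e-09 and 6.6e-06), without overlap with AEF231. In AEF149, where asp-12 was 3.48-fold higher, asp-6 and asp-5 averaged 954 ± 22.3 and 357 ± 22.2 CPM and did not pass the test (adjusted p = 0.114 and 0.768).

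asp-8 showed the largest fall of any member against AEF231. It had 2.50, 1.86, 2.22, 3.72 and 4.54 CPM in AEF149, and 17.2, 13.7, 11.8, 20.6 and 21.1 in AEF373, against 8.54 to 12.1 with a median of 11.2 in AEF231. AEF149 lay below all other libraries, and AEF373 mostly above AEF231 with 1 library inside its range. The log2 fold change was -1.76 ± 0.17 in AEF149 and 0.63 ± 0.13 in AEF373 (adjusted p = 9.28e-11 and 0.000289). asp-13 (WBGene00017881, V:8641602-8643193, minus strand) fell by small amounts with little spread. It had 181, 176, 193, 195 and 195 CPM in AEF276, 183, 182, 194, 207 and 206 in AEF373, and 157, 146, 153, 150.1 and 151 in AEF149, against 220.2 to 284 with a median of 241 in AEF231. None of these libraries reached the AEF231 range, with changes of -0.33 ± 0.05, -0.36 ± 0.04 and -0.64 ± 0.05 log2 (adjusted p = 2.15e-06, 1.58e-08 and 3.75e-14). In AEF378 it averaged 219 ± 23.7 CPM, a change of -0.20 ± 0.04 (adjusted p = 0.00161).

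asp-3 (WBGene00000216, X:6791064-6792709, plus strand) and asp-4 (WBGene00000217, X:13218985-13221462, minus strand), cathepsin D-like genes are known to take part in the necrotic death of worm neurons. asp-3 had 1457, 1385, 1331, 1272 and 1230.5 CPM in AEF373, all above the 894 to 1055 of AEF231 (median 1039), and rose by 0.40 ± 0.06 log2 (adjusted p = 5.44e-07). asp-4 had 430.5, 402, 406, 322 and 299.7 CPM in AEF373, against 299 to 374 (median 329) in AEF231, a change of 0.17 ± 0.07 (adjusted p = 0.0428). Its 3 batch 1 libraries lay above the AEF231 range and its 2 batch 2 libraries within it. asp-2 had 456, 472, 466, 446 and 439.5 CPM in AEF276 and 393, 394, 408, 369 and 386 in AEF149, against 499 to 600.4 with a median of 504 in AEF231, and fell without overlap in both (-0.17 ± 0.05 and -0.39 ± 0.05 log2, adjusted p = 0.00995 and 3.83e-08). asp-1, the most abundant member and a known gut protease gene, had 2469, 2106, 1679, 2085 and 1911 CPM in AEF373 and 1150.2, 1358, 1181, 1286 and 1325 in AEF149, against 1215 to 1895 with a median of 1612 in AEF231. Both strains overlapped AEF231, on opposite sides. Its changes of 0.35 ± 0.12 and -0.37 ± 0.12 log2 passed narrowly (adjusted p = 0.0237 and 0.0404). asp-14 had 33.7, 39.4, 37.0, 44.98 and 35.1 CPM in AEF149, against 36.4 to 69.9 with a median of 46.5 in AEF231, and fell (-0.58 ± 0.12 log2, adjusted p = 0.00105), in libraries that overlapped. Without the batch term this call ended (adjusted p = 0.162).

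In AEF276, which lost flp-17, the members that fell were asp-13, cpr-4, cpz-1, cpr-1 and asp-2. 20.3% of all genes tested passed in either direction, against 6 of 20 members. The gene that rose was asp-17, at 5.91, 7.40, 3.34, 4.59 and 3.33 CPM in AEF276, against 1.36 to 3.36 with a median of 2.84 in AEF231 (0.73 ± 0.26 log2, adjusted p = 0.0433). The other 14 had log2 fold changes between -0.24 and 0.31. Leaving out AEF276 replicate 1, 2 or 4 or AEF231 replicate 1, 2, 3, 4 or 5 ended the asp-17 call (adjusted p between 0.0528 and 0.232). So did leaving out AEF373 replicate 1, 2 or 3 or any AEF378 library (0.0506 to 0.0769), which enter through the shared spread and batch terms. Sperm markers were lower in AEF276 in 33 of 33 tested, with a sum of 11.5 to 24.9 CPM, against 153 to 350.2 in AEF231, and intestinal markers in 7 of 19 with none higher, with a sum of 1152 to 1292 CPM, against 1380.3 to 1607. Muscle markers were lower in 8 of 12, with sums of 4655 to 5838 CPM in AEF276 and 5337 to 7462 in AEF231, and oocyte markers higher in 8 of 8, with sums of 11757 to 14183 and 10171 to 11648 CPM in the same strains. Epidermal markers were lower in 3 of 12 and pharyngeal markers in 2 of 7. The part of these lists in the falls of the proteases was not tested.

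In AEF378 the members that rose were cpr-3, asp-12 and cpz-2, and asp-13 and cpz-1 fell, in a comparison in which 13.6% of all genes passed. The other 15 lay between -0.04 and 0.66 log2, the highest being asp-17 at 3.92 ± 0.734 CPM in AEF378 and 2.53 ± 0.883 in AEF231 (adjusted p = 0.0828). The cpz-1 call ended without AEF231 replicates 3, 4 or 5 or AEF378 replicates 3, 4 or 5 (adjusted p between 0.0504 and 0.111). It also ended without the batch term (0.0517), with batch 1 alone (0.304) and with a replicate block (0.0751). The number of members that rose was 6 without AEF231 replicate 5 and 5 without AEF231 replicate 4, AEF378 replicate 3 or AEF276 replicate 2, against 3, and 1 member fell in place of 2 without AEF378 replicate 3, 4 or 5 or AEF231 replicate 3, 4 or 5. With no filter beyond 1 count 10 members were called, 8 of them higher, and with batch 1 alone 3. Of the 5 calls only 1, that of cpr-3, held in every alternative. Epidermal markers rose in 5 of 12, with sums of 1474 to 1666 CPM in AEF378 and 1231 to 1866 in AEF231, and intestinal markers rose in 4 of 19 and fell in 1, with sums of 1406 to 1740.2 CPM in AEF378 and 1380.3 to 1607 in AEF231. Muscle markers rose in 4 of 12 and neuronal markers in 3 of 10, and oocyte markers fell in 3 of 8. Their part in the protease calls was not tested.

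In AEF373 the 16 calls compare with 34.8% of all genes, and 10 of 20 members had libraries that did not overlap those of AEF231, against 14.6% of all genes. asp-12 and cpr-3 passed with at least a 2-fold change. The members that did not pass were asp-14, asp-17, asp-2 and cpr-1. asp-17 was at 5.16, 5.43, 4.44, 1.30 and 1.57 CPM in AEF373, high in batch 1 and low in batch 2. 3 calls ended when 1 library was left out: asp-1 ended without AEF373 replicate 1 (adjusted p = 0.0812), cpl-1 without AEF373 replicates 1 or 2 or AEF231 replicates 1 or 6 (0.0631 to 0.121), and asp-4 without AEF373 replicates 1, 2 or 3, AEF231 replicates 1 to 4 or AEF276 replicate 4 (0.0503 to 0.148). With a replicate block the asp-4 and cpl-1 calls ended (0.0546 and 0.057), and asp-4 also when only the strains compared were fitted (0.109). Intestinal markers rose in 7 of 19 and fell in 1, with a sum of 1523 to 1712 CPM in AEF373 and 1380.3 to 1607 in AEF231, and a median log2 fold change of 0.22. Epidermal markers rose in 6 of 12 and fell in 2, with sums of 1366 to 1648 CPM in AEF373 and 1231 to 1866 in AEF231. Neuronal markers rose in 9 of 10, with sums of 331 to 423 CPM in AEF373 and 294 to 344 in AEF231, and muscle markers in 6 of 12 and pharyngeal markers in 3 of 7. Sperm markers fell in 5 of 33 and oocyte markers in 2 of 8. The part of these lists in the rise of the proteases was not tested.

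In AEF149 the 11 calls compare with 17.5% of all genes, and asp-12 and asp-8 passed with at least a 2-fold change, in opposite directions. All AEF149 libraries were in batch 1, and the strain also differs in background, so that array, background and sorting cannot be told apart. Leaving out AEF149 replicate 1, 3, 4 or 5, AEF231 replicate 1, 2, 3, 4 or 5, AEF373 replicate 2, 4 or 5 or AEF378 replicate 1 or 4 ended the asp-1 call (adjusted p between 0.0504 and 0.112), as did a replicate block (0.0575). The cpr-1 call ended without AEF231 replicates 4 or 5 (0.0798 and 0.0736) and with batch 1 alone (0.14), and the cpr-4 call without AEF231 replicates 2 to 5 or AEF149 replicates 3 or 4 (0.0515 to 0.11) and when only the strains compared were fitted (0.0724). Without AEF231 replicate 4 or 5, 6 members fell in place of 9. Sperm markers were lower in 33 of 33, with a sum of 27.2 to 65.3 CPM in AEF149 and 153 to 350.2 in AEF231. Intestinal markers were higher in 4 of 19 and lower in 7, with a sum of 1243 to 1297 CPM in AEF149, below all AEF231 libraries. Muscle markers were lower in 9 of 12 and higher in 1, with sums of 4231 to 4496 CPM in AEF149 and 5337 to 7462 in AEF231. Neuronal markers were higher in 6 of 10, with sums of 365 to 403 CPM in AEF149 and 294 to 344 in AEF231, and pharyngeal markers higher in 4 of 7 and lower in 1, with sums of 247 to 318 CPM in AEF149 and 147 to 221 in AEF231. Epidermal markers were higher in 1 of 12 and lower in 1, with sums of 736 to 904 CPM in AEF149 and 1231 to 1866 in AEF231. The lower gene was col-19 (-0.83 ± 0.07 log2, adjusted p = 7.19e-11) and the higher grd-10 (0.53 ± 0.18, adjusted p = 0.0299). The part of these lists in the protease changes was not tested.

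Other genes of the lysosome had a smaller median change than the proteases in AEF373. Of 39 tested genes listed as lysosomal hydrolases other than the members, 15 rose and 5 fell in AEF373 (17.9% and 16.9% of all genes). Their median log2 fold change was 0.18. Among the listed genes the mannosidase gene aman-3 was at 0.88 ± 0.14 log2 and the cathepsin A-like carboxypeptidase gene ctsa-4.1 at 0.75 ± 0.11 (adjusted p = 5.06e-06 and 1.3e-05). nuc-1, which encodes the DNase II of lysosomes, was at -0.61 ± 0.07 (adjusted p = 8.07e-09). Whether each listed product acts in the lysosome was not tested. Of the same 39 genes none rose and 4 fell in AEF276 (11.2% and 9.08% of all genes). In AEF378 3 rose and 3 fell (7.68% and 5.92%), and in AEF149 2 rose and 9 fell (6.51% and 11%). nuc-1 also fell in AEF276 and AEF149 (-0.47 ± 0.07 and -0.43 ± 0.07 log2, adjusted p = 1.79e-05 and 2.84e-05). In AEF378 the lysosomal mannosidase gene aman-1 fell by 0.92 ± 0.10 log2 and tag-196, a cathepsin F-like gene, rose by 0.44 ± 0.08 (adjusted p = 1.34e-08 and 0.000154).

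None of the 22 V-ATPase genes rose in AEF373 while 5 fell, and none rose and 10 fell in AEF149. None rose and 2 fell in AEF378, and 3 rose and 7 fell in AEF276. Over all genes tested, 17.9% rose and 16.9% fell in AEF373, and 6.51% and 11% did in AEF149. The shares were 7.68% and 5.92% in AEF378 and 11.2% and 9.08% in AEF276. vha-6, the pump subunit of the apical gut membrane, was at -0.35 ± 0.05 log2 in AEF149 (adjusted p = 2.35e-07). Of 28 tested genes of lysosome membranes and their regulators 3 rose and 3 fell in AEF373. Their median log2 fold change was -0.07. spin-2 was at 0.79 ± 0.25 log2 and spin-3 at -0.62 ± 0.21 (adjusted p = 0.0116 and 0.021). hlh-30, the worm TFEB gene that activates lysosomal and autophagy genes, was at 0.46 ± 0.09 (adjusted p = 0.000176). 3 rose and 5 fell in AEF276, 3 and 3 in AEF149 and none passed in AEF378. Of the cystatin genes, cpi-1 rose in AEF378 and AEF373, by 0.69 ± 0.10 and 0.84 ± 0.10 log2 (adjusted p = 4.9e-05 and 5.74e-07), and cpi-2 passed in none of the 4 comparisons. The inhibitor gene cpi-1 thus passed in the same direction as cpr-3 in these strains.

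Batch 2 held 6 libraries, 2 each of AEF378, AEF373 and AEF231, so that AEF378 and AEF373 could be compared with AEF231 within each batch. In AEF373, 14 members rose and 2 fell within batch 1, where 17.5% and 12.8% of all genes did, in a fit with a term for each strain and batch. Within batch 2, 7 rose and 3 fell, where 4.42% and 1.68% of all genes did. asp-12 was at 2.35 and 3.16 log2 in batches 1 and 2, cpr-4 at 0.62 and 0.73, asp-6 at 0.47 and 0.61 and cpz-1 at -0.46 and -0.41, all past the threshold in both. cpr-3 was at 1.62 and 0.83, also past it in both. asp-4 was at 0.40 in batch 1 and -0.20 in batch 2, a difference of -0.60 that passed the test (edgeR adjusted p = 0.0024). It was the only member of 20 whose difference between batches passed after adjustment, where 62 of 13315 genes did. At an unadjusted p below 0.05 in this test were 6 of 20 members and 1284 of 13315 genes, with 2 libraries a strain in batch 2. In AEF378, 3 members rose and 1 fell within batch 1, where 4.91% and 2.47% of all genes did, and 3 rose and 0 fell within batch 2, where 2.26% and 0.511% did. asp-12, at 0.50 and 1.35, and cpr-3, at 1.03 and 0.80, passed in both. For asp-12 the batch 1 result was borderline: the edgeR adjusted p was 0.043 in this fit and 0.0669 with batch 1 fitted alone. No member's difference between batches passed the same test after adjustment, where 5 genes did. At an unadjusted p below 0.05 were 4 of 20 members and 675 of 13315 genes.

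**Figure D4:**
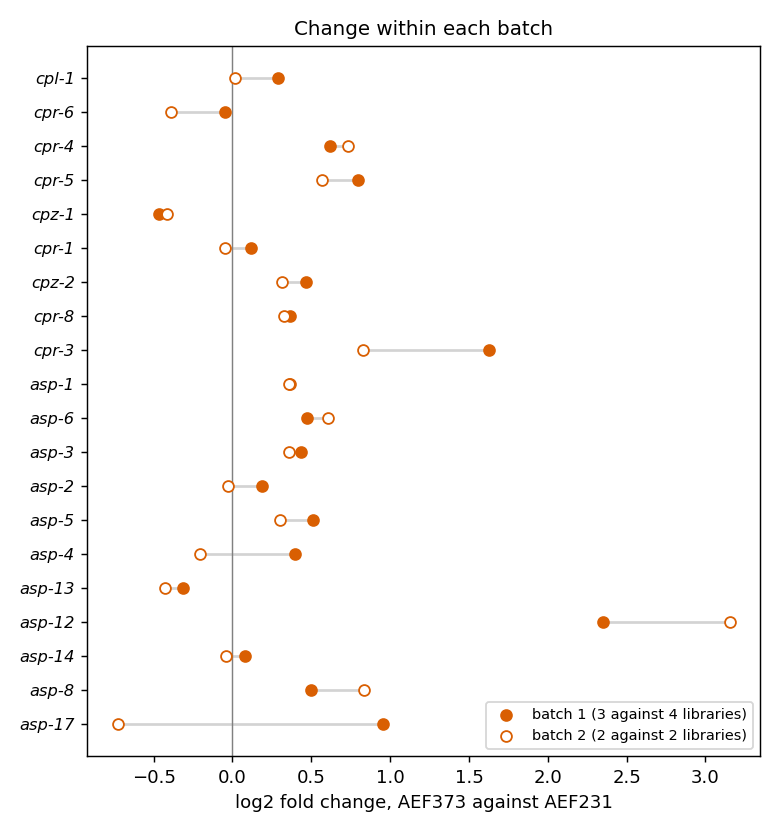
Log2 fold change of the 20 tested members (y axis) in AEF373 against AEF231 within batch 1 (filled) and within batch 2 (open). asp-12 lies at 2.35 and 3.16, and asp-4 at 0.40 and -0.20 on either side of 0.

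Array strains were also compared with each other, because all were sorted. AEF378 and AEF373 share the background and differ in the promoter, the tag and the marker, with 7.59 and 301 CPM of flp-17. 9 of 20 members were lower and 2 higher in AEF378 than in AEF373, where 5.92% and 3.68% of all genes were (9.6% in either direction). asp-12 had 63.3 to 95.1 CPM in AEF378 and 255 to 302 in AEF373, a log2 fold change of -1.83 ± 0.16 (adjusted p = 6.07e-08), and it was the 1 member called with at least a 2-fold change (2.4% of all genes). Libraries of 6 members, asp-12 among them, did not overlap (5.96% of all genes). The others were cpr-4 (-0.47 ± 0.07), asp-6 (-0.39 ± 0.06), asp-5 (-0.34 ± 0.07) and asp-3 (-0.26 ± 0.06), all lower in AEF378 (adjusted p = 1.02e-05, 5.56e-06, 0.00111 and 0.00232). The last was cpz-1, which was higher in AEF378, at 274 ± 13.9 CPM, against 224 ± 15.4 in AEF373 (0.29 ± 0.05 log2, adjusted p = 0.000148). cpl-1 averaged 1503 ± 109 CPM in AEF378 and 1502 ± 144 in AEF373 (adjusted p = 0.987). The calls of asp-13, asp-8, cpr-3, cpr-5 and cpr-8 each ended without 1 of several AEF378 or AEF373 libraries: asp-13 without AEF378 replicates 1 or 5 or AEF373 replicates 4 or 5 (adjusted p between 0.0541 and 0.0729), asp-8 without AEF378 replicates 2, 4 or 5 or AEF373 replicates 1, 4 or 5 (0.0568 to 0.0863), cpr-3 without AEF378 replicates 1, 3 or 5 or AEF373 replicates 1 or 3 (0.0516 to 0.108), cpr-5 without AEF378 replicates 1 to 3 or AEF373 replicates 1 or 2 (0.0614 to 0.0931), and cpr-8 without AEF378 replicates 2 or 3 or AEF373 replicates 1 or 2 (0.0618 to 0.0789). The number lower in AEF378 was 5 without AEF373 replicate 1 and 6 without AEF378 replicate 2 or 3, against 9. The number higher was 3 without AEF373 replicate 1 and 1 without AEF378 replicate 1 or 5 or AEF373 replicate 4 or 5, against 2. Without the batch term 7 members were called, and within batch 2 alone 2. Of the 11 calls 6 held with each library left out, but only 1, that of asp-12, held in every alternative. Those of cpr-4, asp-6, asp-5, asp-3 and cpz-1 ended with batch 2 alone, which has 2 libraries a strain. Epidermal markers were lower in AEF378 in 6 of 12 and higher in 1, with sums of 1474 to 1666 CPM in AEF378 and 1366 to 1648 in AEF373. Neuronal markers were lower in 2 of 10, and intestinal markers in 1 of 19, with sums of 1406 to 1740.2 CPM in AEF378 and 1523 to 1712 in AEF373. The part of these lists was not tested.

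AEF149 and AEF373 are the strains with the most flp-17 reads, and of the 6 comparisons made theirs had the most members called. 17 of 20 members were lower in AEF149 and none was higher, where 19% and 13.2% of all genes were (32.3% in either direction), and the members' median log2 fold change was -0.48. Libraries did not overlap for 13 of 20, against 18.7% of all genes, and 3 members, asp-8, cpr-3 and asp-17, were called with at least a 2-fold change (6.86% of all genes). asp-8 was at -2.39 ± 0.17 log2 (adjusted p = 1.12e-14), cpr-3 at -1.09 ± 0.13 (4.29e-09), cpr-4 at -0.87 ± 0.07 (2.55e-11), asp-12 at -0.80 ± 0.16 (0.000601), asp-1 at -0.72 ± 0.13 (0.000183) and asp-6 at -0.64 ± 0.06 (4.99e-11). cpl-1 averaged 1171 ± 31.6 CPM in AEF149 and 1502 ± 144 in AEF373 (-0.37 ± 0.07 log2, adjusted p = 0.000165). asp-17 had 1.54 to 2.50 CPM in AEF149 and 1.30 to 5.43 in AEF373, a change of -1.01 ± 0.28 (adjusted p = 0.00521) that ended without the batch term (0.0505), as did that of asp-14 (0.139). The members that did not pass were cpz-1, at 223 ± 14.2 CPM in AEF149 and 224 ± 15.4 in AEF373, cpz-2 and asp-4 (adjusted p = 0.903, 0.31 and 0.236). The cpr-6 call ended without AEF149 replicates 1 or 2 or AEF373 replicates 1 or 3 (0.0518 to 0.113), and the cpr-8 call without AEF149 replicate 1 or AEF373 replicates 1 or 2 (0.0568 to 0.0853). Intestinal markers were lower in AEF149 in 10 of 19 and higher in 1, with sums of 1243 to 1297 CPM in AEF149 and 1523 to 1712 in AEF373. Sperm markers were lower in 31 of 33, with sums of 27.2 to 65.3 CPM in AEF149 and 49.8 to 341 in AEF373. Muscle markers were lower in 11 of 12, with sums of 4231 to 4496 CPM in AEF149 and 6155 to 7537 in AEF373. Epidermal markers were lower in 7 of 12 and higher in 2, with sums of 736 to 904 CPM in AEF149 and 1366 to 1648 in AEF373. Oocyte markers were higher in 4 of 8 and none was lower, with sums of 10743 to 11666 CPM in AEF149 and 9640 to 11388 in AEF373. Neuronal markers were higher in 1 of 10 and lower in 2, and pharyngeal markers were lower in 1 of 7. The part of these lists was not tested. Other lysosomal hydrolase genes were lower in 19 of 39 and higher in 1. With batch 1 alone, 18 members were lower in AEF149 and none was higher. The strains also differ in background, since AEF149 had not been outcrossed, and array and background cannot be told apart.

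**Figure D5:**
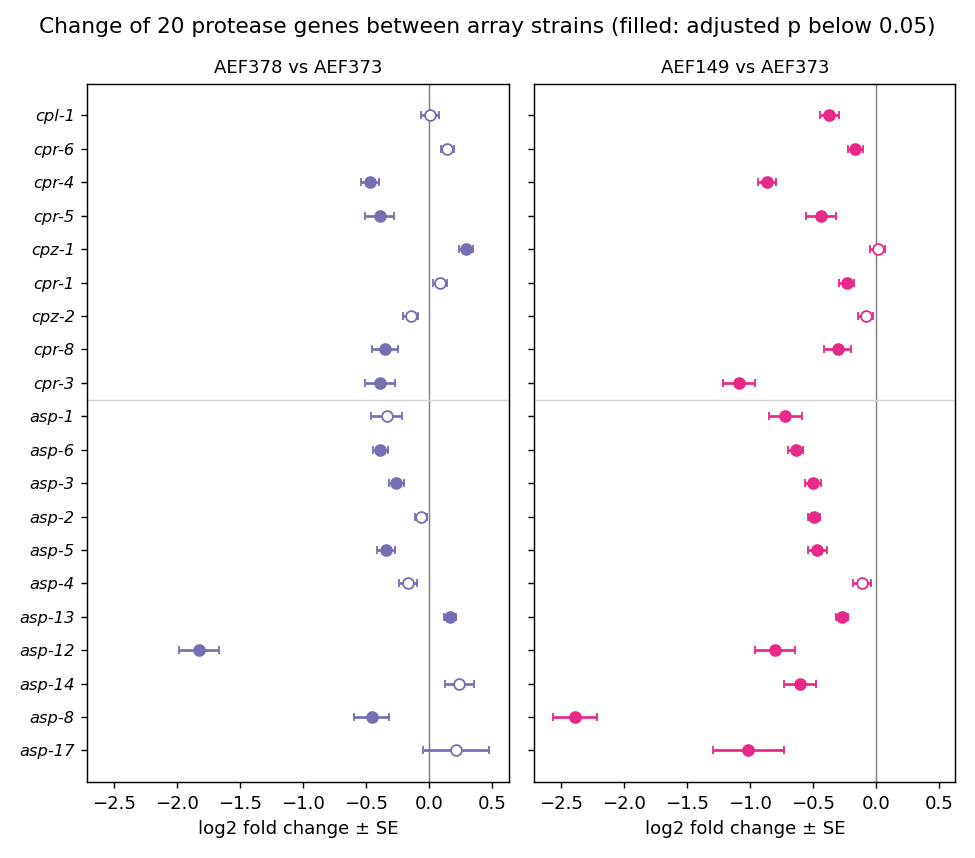
Log2 fold change with its SE (x axis) of the 20 tested members (y axis, ordered as in the plot against AEF231) in AEF378 and in AEF149 against AEF373. Filled points have an adjusted p below 0.05, and all 17 filled points of AEF149 lie below 0.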

How the data were processed

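Per the labels' protocols, poly(A) RNA of age-synchronised whole day 1 adults was sequenced. The authors deposited whole-number read counts per gene symbol and library. For tools and build, STAR 2.7.11b and ce11 are listed in the submitters' processing notes. Counting tool, strand setting and annotation: not given in the sources used here. Library totals lay between 9659877 and 15528669 counts.

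Counts were used as deposited. Genes were kept with filterByExpr of edgeR 4.0.16 (R 4.3.3) by strain, scaled by TMM, and fitted with robust quasi-likelihood models (26 libraries; strain and batch as terms). The p-values were adjusted over all 13315 genes. Standard errors were taken as the log2 fold change over the square root of F. All 27 members matched the Ensembl annotation (WBcel235, the assembly of ce11) by symbol; exon lengths and positions come from it, and it also lists cpr-9. Neither cpr-9 nor asp-10 was analysed here. Values were named for up to 8 called members per comparison (mean CPM of 2 or more), for members with a known role, and for up to 3 genes of each other list. Members and lists were chosen with earlier results of these data known.

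Alternatives were: fitting batch 1 alone or without a batch term, a block for the labels' group number, only the strains compared, DESeq2 1.42.0, RLE factors, a looser and a stricter filter, no robust weights, and each library left out; batch 2 alone and the test between batches were chosen after seeing the data. Over 55 replicate pairs the chi-square per gene was between 3.32 and 14.2, so that no library was a repeat of another.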

Additional observations from a re-analysis of the deposited data

Results flagged for a closer look

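Of 100 sets of libraries (20 members in 5 strains), 7 had a library far from the others of its strain, where chance gives about 1 in 20. asp-3 was low in AEF231 replicate 6 at 894 CPM, with the others at 1028 to 1055. cpr-3 was high in AEF231 replicate 1 at 11.96 CPM, with the others at 8.05 to 9.22. cpr-5 was high in AEF231 replicate 5 at 382 CPM, with the others at 246 to 284, and in AEF149 replicate 4 at 367 CPM, with the others at 313 to 328. AEF149 replicate 2 was high for asp-6, at 993 CPM with the others at 937 to 951, and for cpl-1, at 1228 CPM with the others at 1151 to 1163. cpz-2 was high in AEF276 replicate 2 at 49.2 CPM, with the others at 41.8 to 43.7.

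The effect of AEF373 on asp-4 differed between batches, by -0.60 log2 in batch 2 relative to batch 1 (edgeR adjusted p = 0.0024): it was 0.40 in batch 1, with 402 to 430.5 CPM in AEF373, and -0.20 in batch 2, with 299.7 and 322 CPM.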

How the results depend on the processing

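With each library left out, the number of members called lay between 5 and 7 in AEF276, 4 and 7 in AEF378, 13 and 17 in AEF373 and 8 and 13 in AEF149 against AEF231. It lay between 8 and 12 in AEF378 and 15 and 17 in AEF149 against AEF373. Counts moved by more than 1.5 times in AEF378 against AEF231, to 10 with no filter beyond 1 count, 3 with batch 1 alone and 2 with batch 2 alone, against 5. They moved in AEF378 against AEF373 to 7 without the batch term and 2 with batch 2 alone, against 11. Over 40 pairs with the same group number in the labels and the same batch, in different strains, the correlation of deviations lay between -0.11 and 0.12. Over 130 pairs with other numbers it lay between -0.16 and 0.18. Batch 2 has 2 libraries a strain, whose deviations mirror each other, so that its correlations come with both signs. No pairing was seen, but this check cannot exclude it. Without the neighbours asp-5, asp-6 and asp-12, left out after seeing the data, 13 members were called in AEF373 against AEF231, 10 higher and 3 lower. The replicate block gave 6, 4, 14 and 10 calls in AEF276, AEF378, AEF373 and AEF149 against AEF231, where the fit without it gave 6, 5, 16 and 11. It ended the calls of cpz-1 in AEF378, asp-4 and cpl-1 in AEF373 and asp-1 in AEF149. It gave 11 and 17 against AEF373, as without it. Of 2414 refits of called or named single genes 2279 kept direction and call, 129 lost the call and 4 gained one. 2 turned sign, both with batch 2 alone in AEF373: asp-4 to -0.19 and asp-17, not called, to -0.72. The cause was not tested. Depth limits the 7 members with at most 26 counts in all, and batch 2 alone has 2 libraries a strain.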
